A study of Mus musculus with 6 samples.

Results

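The genes described here make cholesterol, sense it, move it and turn it over. The set holds 34 genes chosen for their known function: 18 enzymes of sterol synthesis, 5 genes of the SREBP system, 8 genes of sterol transport, efflux and turnover, and 3 fatty acid enzymes. They were found by symbol, matched from Ensembl identifiers, among the 55471 genes of the count table, and all 34 passed the filter on low counts that left 17981 genes for testing. RNA-seq libraries came from the hippocampus of C57BL/6 mice (C57BL/6J in the study's methods) aged 3 to 6 months, 3 from Control and 3 from CBP-ifKO, the label used for an inducible, forebrain-restricted knockout. CBP-ifKO mice carried a floxed Crebbp gene, which encodes the histone acetyltransferase CBP, and the Camk2a-creERT2 driver, a recombinase that tamoxifen activates in excitatory forebrain neurons. By the study's methods, Control mice were littermates without the driver. Whether those littermates also carried the floxed gene is not spelled out there. Both groups received 5 intragastric administrations of tamoxifen (20 mg/mL in corn oil) on alternate days. By the study's methods, each library was made from pooled hippocampi of several females, so that a replicate is a pool and not an animal. Glia, interneurons and vessels do not express the driver and keep CBP, and recombined neurons make a truncated protein.

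Neurons and glia of the adult brain make their own cholesterol, because lipoproteins of the blood do not cross the blood-brain barrier, and astrocytes and myelinating oligodendrocytes carry much of this synthesis. The enzymes are controlled together. When sterols are low, the escort protein SCAP brings the precursors of the transcription factors SREBP-1 and SREBP-2 (encoded by Srebf1 and Srebf2) from the endoplasmic reticulum to the Golgi, where they are cut and released to the nucleus, and INSIG proteins hold SCAP back when sterols are plentiful. SREBP-2 mainly drives cholesterol genes and SREBP-1 mainly fatty acid genes, while oxysterols act through the LXR receptors on efflux transporters such as ABCA1 and ABCG1. Neurons dispose of cholesterol through CYP46A1, which converts it to an oxysterol that leaves the brain.

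In these libraries, Srebf2 fell in CBP-ifKOs to 72.3% of its Control mean, while 0 of the 18 sterol synthesis enzymes passed the test (edgeR's quasi-likelihood test, adjusted p under 0.05 after Benjamini-Hochberg adjustment over all genes tested). Abcg1 also fell, to 85.3% of Control, with an adjusted p at the edge of the threshold. These were the only 2 of the 34 genes called, and both were lower. The share called over all genes tested was 6.39%, with 4.99% lower and 1.4% higher, so that the count among the 34 was near the background. Log2 fold changes of the 34 ran from -0.47 to 0.18 with a median of -0.01, beside a median of 0.00 over all genes tested. Of them, 13 were above 0 and 21 below, and of all genes tested 50.7% were below.

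**Figure D1:**
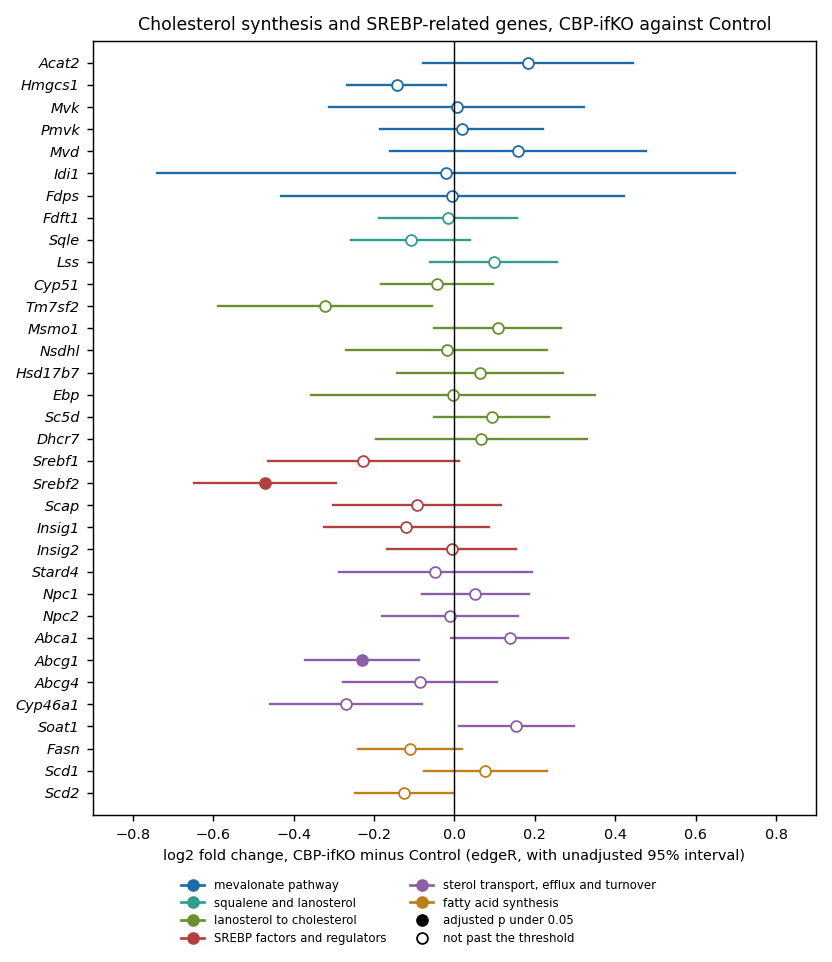
Log2 fold change of each of the 34 genes, CBP-ifKO minus Control (x axis; a positive value is higher in CBP-ifKO), by role (y axis and colour), with unadjusted 95% intervals from edgeR over 3 libraries per group. Filled points have an adjusted p under 0.05: Srebf2 at -0.47 and Abcg1 at -0.23 are the only ones, and the 18 enzymes at the top scatter on both sides of 0.

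Total counts ran from 10199008 to 14950257 per library and mitochondrial genes took 6.95% to 8.73% of them. No pair of replicates was close to a copy, the smallest chi-square over genes being 2.46 per degree of freedom. Crebbp read 156.4 to 208.6 CPM (read counts made comparable between libraries by TMM scaling) in Control and 87.1 to 108.6 CPM in CBP-ifKO, a log2 fold change of -0.96 (SE 0.0997, adjusted p 3.63e-05 by edgeR). The table has 1 value per gene, so floxed exons could not be read on their own. A description field of the Control samples names the Camk2a-creERT2 driver, whereas the treatment text says that controls lacked it. Esr1, part of which is built into the recombinase, read 5.65 to 6.29 CPM in Control and 63.6 to 69.4 CPM in CBP-ifKO. Genes called in the whole table numbered 252 higher and 897 lower, and the split was 514 and 667 when library totals were used in place of TMM and 370 and 727 when trends with GC content and gene length were removed.

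Promoter sequence is given for Srebf2 and for Hmgcs1. Srebf2 was called lower, and for Abcg1, the other gene called, no promoter sequence was at hand. Hmgcs1 is the enzyme whose window holds the longest match to the sterol regulatory element, the site that SREBPs bind. RefSeq windows (GRCm38.p6, 250 bases before and 50 after the annotated start) were at hand for 25 of the 34 genes, in 33 windows. Of these, 28 held the first bases of a GENCODE transcript of the same gene, or had such a transcript at the annotated start. The others did neither. The first kind of match could lie anywhere in the window, so the check does not settle the start positions. Motifs were searched on both strands, and shares are of all 32851 windows and of the 11643 tested genes with a window. The letters CACNCCAC of the element stood in 3 of the 25 genes, Acat2, Hmgcs1 and Insig1 (6.24% of windows and 7.58% of tested genes). With a T before them (TCACNCCAC, 1.24% and 1.39%) they stood in Hmgcs1 alone of the 25. These exact letters were not in the Srebf2 window. The run of Srebf2 printed below does hold TCACCCCAT, which differs from the longer form only in its last letter. Near matches of this kind were not searched in any gene, so their share is not known. CCAAT, the box of the factor NF-Y, stood in 22 of the 25 genes, or 88% (37.4% of windows and 42.4% of tested genes). The full cyclic AMP response element TGACGTCA was in 0 of the 25 (1.79% and 3.39%), its first letters TGACG in 10, Srebf2 included (20.8% and 33.9%), and the E-box CACGTG in 6 (7.15% and 11.2%). These matches are descriptions of letters and not of bound sites. In the runs that follow, capitals mark CACNCCAC and the CCAAT boxes (written ATTGG where the box is on the other strand), both genes are on the plus strand, and each run stops before the first annotated transcript. In Srebf2 (chr15:82147019-82147180) the box begins 135 bases before the RefSeq start. In Hmgcs1 (chr13:119690101-119690350) CACNCCAC begins 136 bases before the start and the boxes 237, 176 and 45 bases before it.
Srebf2: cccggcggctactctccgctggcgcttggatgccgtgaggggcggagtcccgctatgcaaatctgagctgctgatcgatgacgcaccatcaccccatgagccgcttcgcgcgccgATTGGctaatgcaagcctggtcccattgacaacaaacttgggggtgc
Hmgcs1: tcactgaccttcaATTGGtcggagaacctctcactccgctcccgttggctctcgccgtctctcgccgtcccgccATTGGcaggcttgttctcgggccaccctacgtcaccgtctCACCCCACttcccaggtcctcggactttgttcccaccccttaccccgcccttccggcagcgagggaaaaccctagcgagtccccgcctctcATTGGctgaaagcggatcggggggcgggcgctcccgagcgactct

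The first question was whether the SREBP system itself changed. Srebf2 (ENSMUSG00000022463, GRCm38 chromosome 15, 82147181 to 82205379, protein coding), the factor that drives the cholesterol genes, read 85.7, 90.5 and 101.7 CPM in replicates 1 to 3 of Control and 72.1, 59.1 and 69.9 CPM in the same order in CBP-ifKO. Every CBP-ifKO library lay below every Control library, with CBP-ifKO replicate 2 the lowest. The mean fell from 92.6 ± 8.17 to 67.0 ± 6.96 CPM (SD, n = 3), or by 0.47 on the log2 scale (SE 0.083, 95% interval -0.65 to -0.29, adjusted p 0.00259 by edgeR). It stayed past the threshold in each of the 17 refits with other tools, scalings, filters and left-out libraries, with values of -0.52 to -0.31. The value nearest 0 came from removing trends with GC content and gene length together with a replicate block, and with the trends removed alone it was -0.31 (adjusted p 0.0149 by edgeR). The transcript is 57.9% GC, and among the 3591 tested genes of highest GC content (54.5% to 78.3%) the median log2 fold change was -0.13 and 12.5% were called lower, beside 1.67% called lower among genes of 27.5% to 42.5% GC. What GC content contributed beyond this refit was not tested.

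The remaining members of the SREBP system did not pass the test. Srebf1, the factor tied to fatty acid genes, read 35.4, 48.1 and 34.9 CPM in Control and 33.6, 31.0 and 37.0 CPM in CBP-ifKO. Its groups overlapped and Control replicate 2 stood above all others, and without that library the log2 fold change of -0.23 (SE 0.11, adjusted p 0.261 by edgeR) became -0.05, as it did with all libraries once GC and length trends were removed from this transcript of 58.4% GC. Scap, the escort, read 44.7, 56.8 and 42.0 CPM in Control and 44.4, 42.5 and 48.0 CPM in CBP-ifKO. Again only Control replicate 2 stood apart, and the log2 fold change of -0.09 (SE 0.099) was 0.06 without it and 0.10 once GC and length trends were removed. Insig1, which retains SCAP and is itself induced by SREBPs, read 35.0, 42.0 and 34.9 CPM in Control and 32.3, 38.4 and 32.0 CPM in CBP-ifKO, and replicate 2 was the highest in each group (log2 fold change -0.12, SE 0.097, adjusted p 0.527 by edgeR). Its value ran from -0.01 without Control replicate 2 to -0.21 without CBP-ifKO replicate 2. Insig2, its paralogue, lay between 39.2 and 43.1 CPM in Control and between 39.9 and 43.0 CPM in CBP-ifKO. All 5 log2 fold changes of the group were below 0 with a median of -0.12, and Srebf2 was the 1 that passed. Of all genes tested, 50.7% were below 0. Srebf1, Srebf2 and Scap lie among the tested genes of highest GC content (54.5% to 78.3%), whose median was -0.13, near that of the group. Summed over the 5 genes, the level was 243.9 to 276.6 CPM in Control and 212.0 to 229.8 CPM in CBP-ifKO. That separation rested on Srebf2, since the other 4 genes summed to 154.0 to 186.0 CPM in Control and 150.2 to 160.0 CPM in CBP-ifKO, which overlapped. Per kilobase of exon, Srebf2 (12.9 CPM per kb in Control) was read more densely than Srebf1 (7.01 CPM per kb).

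**Figure D2:**
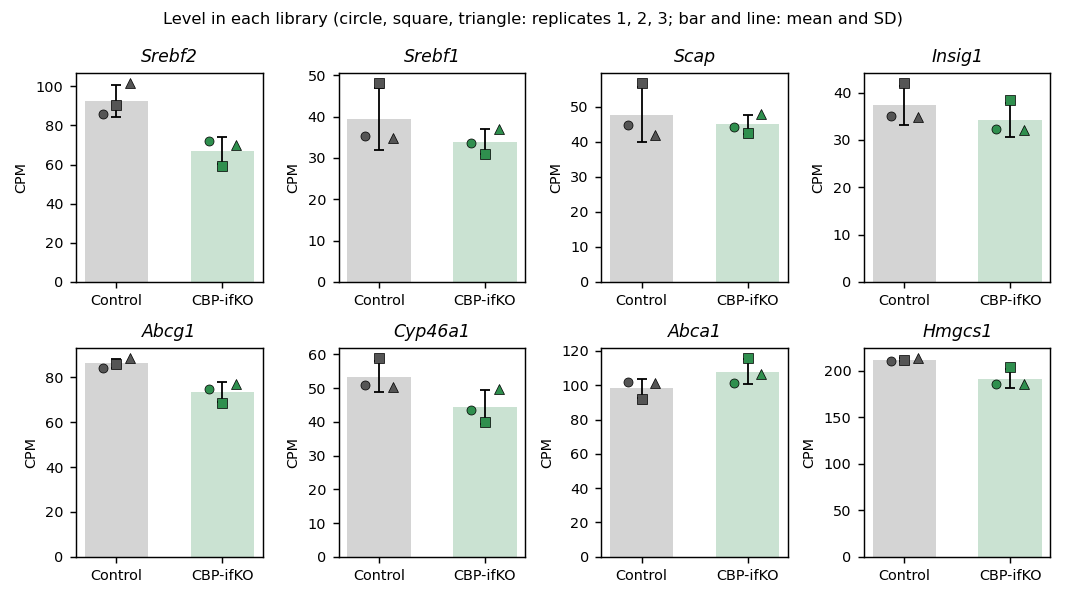
Level in CPM (y axis) of 8 genes in each library of Control (grey) and CBP-ifKO (green), with bars at the mean and lines for the SD of 3 libraries. The CBP-ifKO libraries of Srebf2 (59.1 to 72.1 CPM) and Abcg1 (68.7 to 77.0 CPM) all sit below the Control libraries. So do those of Cyp46a1 and Hmgcs1, which did not pass the test, while those of Srebf1, Scap, Insig1 and Abca1 overlap the Control libraries.

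The second question was whether the enzymes that SREBP-2 drives were lower too. Of the 18 sterol synthesis enzymes, edgeR called 0, as did DESeq2 and limma-voom, and 2 had an unadjusted p under 0.05 (Hmgcs1 and Tm7sf2). Over all genes tested, edgeR called 6.39%, and 21.2% had an unadjusted p under 0.05. Counts this small in 18 genes are close to those shares and do not set the enzymes apart from other genes. Log2 fold changes of the 18 were above 0 for 9 and below 0 for 9, with a median of 0.00 and a range of -0.32 to 0.18. Summed over the 18, the level was 681.5, 689.7 and 684.5 CPM in Control and 651.4, 701.7 and 671.4 CPM in CBP-ifKO, which overlapped, and the CBP-ifKO mean was 98.5% of the Control mean. For 16 of the 18 the whole 95% interval lay within 0.5 of 0 on the log2 scale, and Idi1 had the widest. A p above the threshold does not show that the enzymes were unaltered.

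In the mevalonate arm, which builds isoprenoid units from acetyl-CoA, 0 of 7 enzymes were called, beside 6.39% of all genes tested. Hmgcs1, the synthase that makes HMG-CoA, read 210.2, 210.9 and 213.4 CPM in Control and 185.3, 203.4 and 185.2 CPM in CBP-ifKO. The groups did not overlap, and replicate 2 of CBP-ifKO was the closest to Control (means 211.5 ± 1.69 and 191.3 ± 10.5 CPM, log2 fold change -0.14, SE 0.058, adjusted p 0.161 by edgeR). With GC and length trends removed, Hmgcs1 passed the threshold at -0.18 (adjusted p 0.0470 by edgeR), the only 1 of the 18 enzymes called under any setting tried. Acat2, the thiolase before it, had the largest log2 fold change of the arm and read 13.5, 17.2 and 15.4 CPM in Control and 14.8, 19.1 and 18.2 CPM in CBP-ifKO, which overlapped (0.18, SE 0.12, adjusted p 0.432 by edgeR). Leaving out a library moved it between 0.10 (without Control replicate 1) and 0.29 (without Control replicate 2). Of its 50-base transcript words, 39.1% also occur in other genes, mostly Acat3, so its counts are uncertain. The kinases Mvk and Pmvk and the decarboxylase Mvd had log2 fold changes of 0.01, 0.02 and 0.16. Idi1, the isomerase, and Fdps, which makes farnesyl diphosphate, were read at 1.07 ± 0.31 and 3.88 ± 0.82 CPM in Control, the lowest 2 of the 34 genes also per kilobase. Idi1 rested on 8 to 16 counts per library and the pair share 25.3% and 26.2% of their words with other genes. Their 95% intervals were wide, from -0.74 to 0.70 for Idi1 and from -0.43 to 0.42 for Fdps.

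Squalene synthesis and its closure to lanosterol gave 0 of 3 enzymes called, beside 6.39% of all genes tested. Fdft1, the squalene synthase, read 34.9 to 40.0 CPM in Control and 35.2 to 37.1 CPM in CBP-ifKO. Sqle, the epoxidase and a rate-limiting enzyme, read 48.5, 48.5 and 51.6 CPM in Control and 47.0, 44.7 and 46.2 CPM in CBP-ifKO. Lss, the cyclase after it, read 38.5, 41.1 and 42.9 CPM in Control and 43.3, 43.4 and 44.4 CPM in CBP-ifKO. Neither gene's groups overlapped, and they lay in opposite directions, with Sqle lower (log2 fold change -0.11, SE 0.070, adjusted p 0.408 by edgeR) and Lss higher (0.10, SE 0.074, adjusted p 0.496 by edgeR). Neither difference passed the test, and that of Lss was 0.06 without Control replicate 1.

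From lanosterol to cholesterol, 0 of 8 enzymes were called, beside 6.39% of all genes tested. Tm7sf2, a sterol reductase, had the largest difference and read 11.5, 13.3 and 11.3 CPM in Control and 9.30, 9.33 and 10.3 CPM in CBP-ifKO. All CBP-ifKO libraries were the lower ones (log2 fold change -0.32, SE 0.13, adjusted p 0.148 by edgeR), and 12.1% of its exon bases overlap Vps51 on the same strand. The other 7 ranged from -0.04 for Cyp51, the lanosterol demethylase, to 0.11 for Msmo1, a methylsterol oxidase. Sc5d read 75.3 to 85.8 CPM in Control and 82.7 to 88.1 CPM in CBP-ifKO. Dhcr7, which reduces the last ring double bond, had a log2 fold change of 0.07 and overlapping groups. Nsdhl, Hsd17b7 and Ebp had log2 fold changes of -0.02, 0.06 and -0.00. No member of this arm but Tm7sf2 separated the groups.

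**Figure D3:**
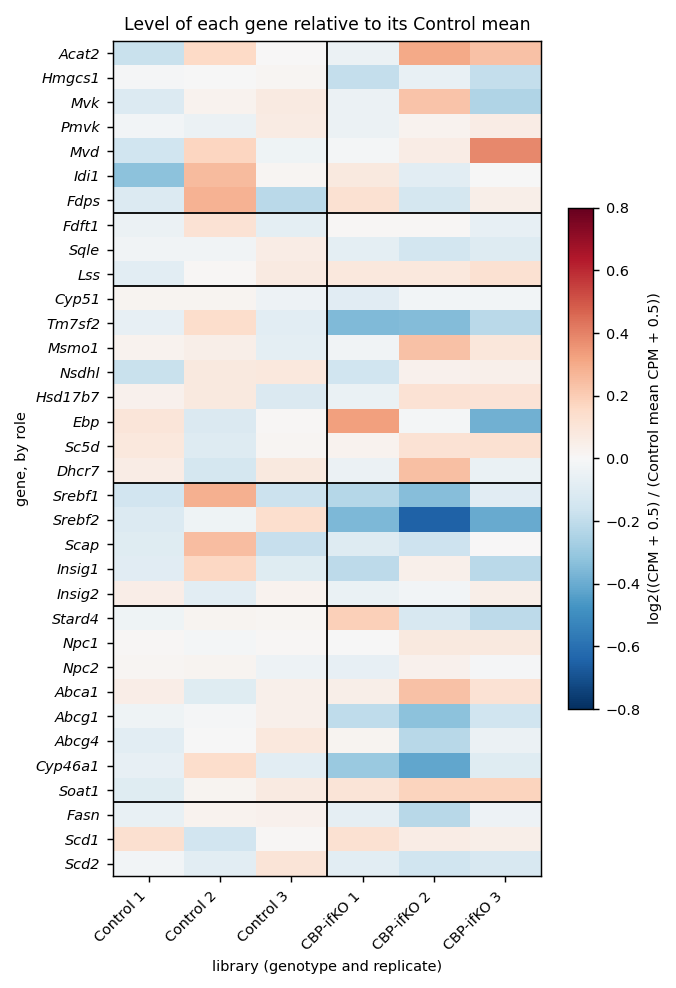
Level of each of the 34 genes (rows, by role) in each library (columns), as log2 of CPM plus 0.5 relative to the gene's Control mean; blue is lower and red is higher. The darkest blue cell is Srebf2 in CBP-ifKO replicate 2, whereas the enzyme rows show no common direction and Control replicate 2 is red for Srebf1, Scap and Insig1.

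The third question concerned the handling of cholesterol once made. Abcg1 (ENSMUSG00000024030, chromosome 17, 31057675 to 31117988), a sterol exporter and LXR target, read 84.2, 85.7 and 88.6 CPM in Control and 74.9, 68.7 and 77.0 CPM in CBP-ifKO. The groups did not overlap and the mean fell from 86.2 ± 2.21 to 73.5 ± 4.34 CPM (log2 fold change -0.23, SE 0.067, 95% interval -0.37 to -0.09, adjusted p 0.0498 by edgeR). The call was lost in 14 of 17 refits, among them DESeq2 (adjusted p 0.0701), the replicate block (adjusted p 0.0502 by edgeR) and each of the 6 fits that left out a library (adjusted p 0.0572 to 0.217 by edgeR), while the value remained between -0.25 and -0.17. Abca1, the other main LXR-driven exporter, read 101.9, 91.9 and 101.1 CPM in Control and 101.4, 115.8 and 106.4 CPM in CBP-ifKO. Its groups overlapped (log2 fold change 0.14, SE 0.069, adjusted p 0.270 by edgeR, and 0.09 without CBP-ifKO replicate 2). Abcg4, the neuronal relative of Abcg1, lay between 29.9 and 33.6 CPM in Control and between 27.1 and 32.2 CPM in CBP-ifKO.

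Cyp46a1, the neuronal cholesterol hydroxylase, read 51.0, 58.9 and 50.5 CPM in Control and 43.5, 40.0 and 49.9 CPM in CBP-ifKO. The groups came close but did not overlap, with 49.9 CPM the highest CBP-ifKO value and 50.5 CPM the lowest Control value. The means were 53.5 ± 4.74 and 44.5 ± 4.99 CPM (log2 fold change -0.27, SE 0.089, 95% interval -0.46 to -0.08), which missed the threshold (adjusted p 0.0844 by edgeR), and the value was -0.12 after GC and length trends were removed from this transcript of 58.5% GC. Soat1, which esterifies cholesterol for storage, read 64.3, 69.7 and 72.1 CPM in Control and 73.7, 77.7 and 77.8 CPM in CBP-ifKO, the CBP-ifKO libraries all being higher (0.15, SE 0.068, adjusted p 0.199 by edgeR). The lysosomal exporters Npc1 and Npc2 and the carrier Stard4 had log2 fold changes of 0.05, -0.01 and -0.05. Of the 8 genes of this group, 3 were above 0 and 5 below.

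Among the fatty acid enzymes, which SREBPs also drive, 0 of 3 were called and 1 had an unadjusted p under 0.05. The shares over all genes tested were 6.39% and 21.2%, and counts in 3 genes do not set them apart from these. Scd2, the main brain desaturase, was the most densely read of the 34 genes at 174.4 CPM per kb in Control. It read 937, 899 and 1022 CPM in Control and 898, 853 and 870 CPM in CBP-ifKO, and the groups were separated by little more than 1 CPM (log2 fold change -0.13, SE 0.058, adjusted p 0.227 by edgeR, and -0.07 without Control replicate 3). Scd1, its close relative, read 92.3 to 112.4 CPM in Control and 106.2 to 111.6 CPM in CBP-ifKO, a log2 fold change of 0.08. Fasn, the fatty acid synthase, read 258.3 to 276.1 CPM in Control and 231.7 to 261.8 CPM in CBP-ifKO (-0.11, SE 0.061).

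Counted by separation, 9 of the 34 genes had groups that did not overlap, 7 lower (Hmgcs1, Sqle, Tm7sf2, Srebf2, Abcg1, Cyp46a1 and Scd2) and 2 higher (Lss and Soat1) in CBP-ifKO. Over all genes tested, 25.6% did not overlap, 13.9% lower and 11.8% higher. An unadjusted p under 0.05 was reached by 7 of the 34 and by 21.2% of all genes. Hmgcs1, Lss and Soat1 are described singly because of their separation and were picked after their values were seen.

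**Figure D4:**
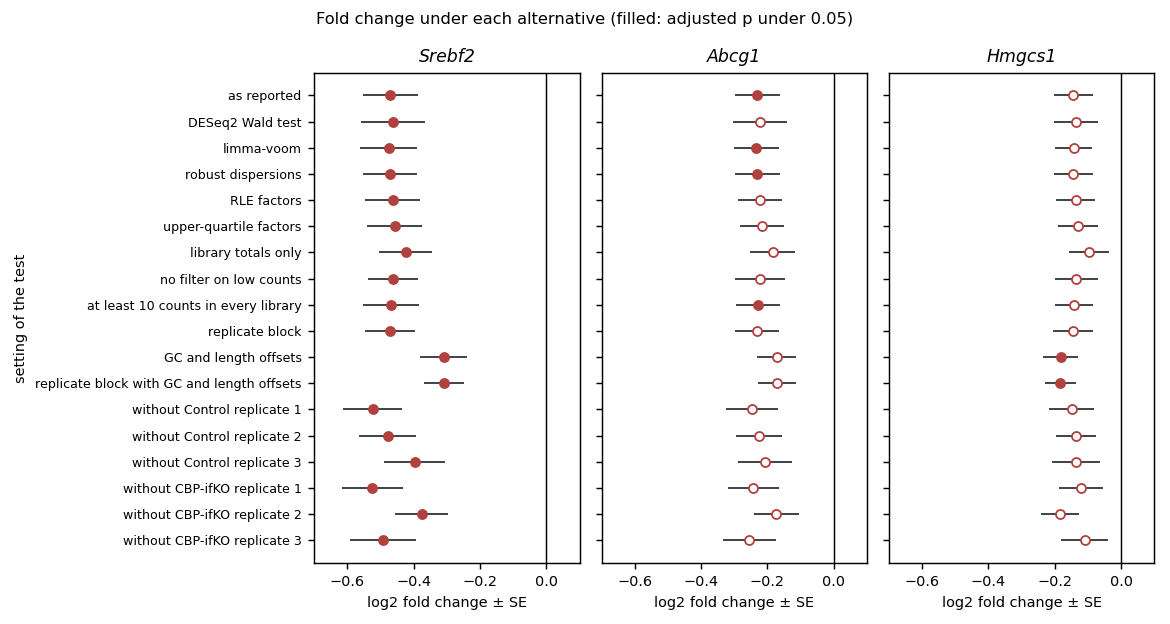
Log2 fold change with its SE (x axis) of Srebf2, Abcg1 and Hmgcs1 as reported and under each of 17 alternatives (y axis), filled where the adjusted p is under 0.05. Srebf2 is filled throughout (-0.52 to -0.31), Abcg1 in 3 of the 17 alternatives, and Hmgcs1 only in the 2 with GC and length trends removed.

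A wider list of 36 genes of the same pathways was examined beside these, covering further synthesis enzymes, SREBP processing, fatty acid targets, LXR targets and uptake. Over all genes tested, edgeR called 6.39%, and 21.2% had an unadjusted p under 0.05. Of the 34 genes of this list that were tested, edgeR, DESeq2 and limma-voom called 0, and 6 had an unadjusted p under 0.05. Log2 fold changes were above 0 for 19 and below 0 for 15, with a median of 0.01 and a range of -0.26 for Nr1h2, which encodes an LXR receptor, to 0.22 for Ggps1, an isoprenoid synthase. Cyp39a1 and Ch25h, enzymes of oxysterol metabolism, were too low to be tested.

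Markers of the cells that make cholesterol, and of other cell types, were read beside these values. The shares over all genes tested were 6.39% called and 21.2% with an unadjusted p under 0.05. Of 8 astrocyte markers, 0 were called and 1 had an unadjusted p under 0.05, with summed levels of 5372 to 6203 CPM in Control and 5526 to 5652 CPM in CBP-ifKO. Of 8 oligodendrocyte markers, 0 were called and 1 had an unadjusted p under 0.05 (2471 to 2935 CPM and 2550 to 2768 CPM). All 3 markers of oligodendrocyte precursors fell, Pdgfra by 0.38, Cspg4 by 0.57 and Gpr17 by 0.36 on the log2 scale, and their sum was 128.3 to 140.4 CPM in Control and 98.7 to 101.0 CPM in CBP-ifKO. Of 4 markers of CA1 pyramidal neurons, 3 fell and the sum was 329.5 to 338.2 CPM in Control and 203.8 to 219.1 CPM in CBP-ifKO. Among 5 dentate granule cell markers 1 rose and 1 fell (392.5 to 428.9 CPM and 436.7 to 481.6 CPM), among 4 CA3 markers 1 rose and 1 fell (692.9 to 759.1 CPM and 741.8 to 799.8 CPM), 1 of 5 general excitatory markers fell (2739 to 3131 CPM and 2758 to 3168 CPM) and 1 of 5 interneuron markers fell (458.3 to 458.9 CPM and 417.6 to 444.2 CPM). No marker of the astrocyte, oligodendrocyte, precursor and CA1 lists was at 0 in any library. In whole tissue, fewer cells of a type and less RNA per cell cannot be told apart, and the part of these cell types in the lower Srebf2 and Abcg1 was not tested.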

How the data were processed

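Per the labels and the study's methods, the authors trimmed reads (single-end, 50 bp) with Trim Galore 0.6.4, aligned them with STAR 2.6.1 to GRCm38, kept reads of high mapping quality and counted them over Ensembl exons with Rsubread. They deposited raw, unnormalized counts for each gene, beside its exonic length in bases. Whether counting used strand was not stated, so genes that overlap on either strand are uncertain. Reads shared by near-identical copies may be dropped by the quality filter.

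Of 55471 identifiers, 55230 (99.57%) matched GENCODE of the same build, which gave symbols, positions and GC content. Counts were tested with edgeR 4.0.16 (R 4.3.3): TMM scaling, filterByExpr (minimum count 10, minimum total 15), the quasi-likelihood F-test over all 17981 genes passing the filter, Benjamini-Hochberg adjustment and a threshold of 0.05. The SE is the log2 fold change divided by the square root of F, and 95% intervals are unadjusted. Levels are given as CPM after TMM scaling, with mean ± SD. Replicates varied by 6.81% (common biological coefficient of variation), and counting error adds to this, the more so the fewer the counts. P-values set the group difference against the spread between these pooled samples, estimated for each gene with help from the other genes. Variation between single mice was not measured.

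The genes and lists were chosen with earlier results of these data known. A gene of the wider list is not reported here, and the counts for that list leave it out. Values in every library were given for genes that were called, had the largest fold change of their role, or were Srebf1, Srebf2, Scap, Insig1, Abca1 or Cyp46a1, and the others by ranges or fold changes. The authors' own comparison used DESeq2 1.30.1. Alternatives were DESeq2 1.42.0, limma-voom (limma 3.58.1), robust dispersions, scaling by RLE, by upper quartiles or by library totals, no filter, a minimum of 10 counts in all libraries, leaving out each library, the replicate number as a block, offsets for GC and length trends (splines, 5 degrees of freedom) with and without the block, and an adjusted p under 0.01.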

Additional observations from a re-analysis of the deposited data

How the results depend on the processing

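Srebf2 passed the threshold under each of its 17 alternatives. Only Srebf2 was called among the 34 genes, a count of 1 in place of 2, under DESeq2, RLE, upper-quartile and total-count scaling, the replicate block, an adjusted p under 0.01 and all 6 fits without a library (1 to 1). Abcg1 was then over the threshold. Its adjusted p was 0.0568 under RLE, 0.0644 under upper-quartile scaling, 0.109 with library totals, 0.0656 without a filter and 0.0972 with GC and length offsets, and it kept its call under limma-voom, robust dispersions and the stricter filter. Sterol synthesis enzymes called numbered 1, Hmgcs1, with GC and length offsets and with these and the block (-0.18, adjusted p 0.0116 by edgeR), and 0 otherwise. Cyp46a1 passed without a filter (adjusted p 0.0446 by edgeR), so that in these settings the count of 2 held Hmgcs1 or Cyp46a1 in place of Abcg1. Of the wider list, 1 gene was called with library totals (Ggps1), without a filter (Gramd1b) and with offsets (Abca7), 5 (Abca7, Acaca and Acly higher, Gramd1b and Rnf145 lower) with block and offsets, and 0 to 1 with a library left out (Gramd1b without Control replicate 2 and Ggps1 without CBP-ifKO replicate 3). Scap changed sign with offsets (0.10), with offsets and block (0.11) and without Control replicate 2 (0.060). The 34 genes had a median of 0.031 with library totals, where that of all genes was 0.04, and -0.04 to 0.01 with a library left out. Genes called in the whole table numbered 1837 with block and offsets, 476 at an adjusted p under 0.01 and 498 to 1326 with a library left out. Of the 20 members given without values in every library, 0 were called under any setting and 13 changed sign under at least 1, within -0.22 to 0.33. The causes were not tested.

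Deviations of same-numbered replicates from their group means were little correlated (0.08, 0.04 and 0.00). This does not settle whether same-numbered libraries were prepared together. Besides Abcg1, the replicate block alone changed no call among the members or the wider list (1210 genes called in all). Depth limits Idi1 and Fdps most. Strand-blind counting would leave Fdft1, Scap, Hmgcs1 and Idi1 mixed with genes on the other strand, with smaller overlaps in some other members. Fdps overlaps Gm43738 over 26.7% of its exon bases, and Tm7sf2 overlaps Vps51 over 12.1%. Both overlaps are on the same strand, so these counts are uncertain whatever the strand setting.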

Other observations

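Among the 34 tested genes of the wider list, 8 had groups that did not overlap, 5 higher and 3 lower in CBP-ifKO, none past the threshold. Over all genes tested 25.6% did not overlap, 11.8% higher and 13.9% lower, so that the count was near the background. The genes named here were picked after their values were seen. Acaca, the carboxylase that commits acetyl-CoA to fatty acids, read 63.6, 62.5 and 64.1 CPM in Control and 71.6, 70.7 and 71.0 CPM in CBP-ifKO, a log2 fold change of 0.17 (SE 0.063, adjusted p 0.136 by edgeR). Acly and Acss2, which supply cytosolic acetyl-CoA, had log2 fold changes of 0.11 and 0.13. Ggps1, which diverts farnesyl diphosphate to geranylgeranyl diphosphate, read 69.5, 71.9 and 70.1 CPM in Control and 83.7, 88.3 and 74.1 CPM in CBP-ifKO (0.22, SE 0.073, adjusted p 0.0838 by edgeR), and Lbr, a sterol reductase of the nuclear envelope, had 0.16. Tm7sf2 catalyses the same reaction as Lbr and lay in the opposite direction at -0.32.

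The other 3 were lower. Fads2, a desaturase of polyunsaturated fatty acids, read 110.9, 116.7 and 117.9 CPM in Control and 98.5, 99.2 and 105.6 CPM in CBP-ifKO (-0.19, SE 0.062, adjusted p 0.0831 by edgeR). Rnf145, a sterol-responsive ubiquitin ligase, had -0.20 and Gpam, which starts glycerolipid synthesis, -0.10. The summed level of the 9 fatty acid genes of the wider list was 801.3 to 820.0 CPM in Control and 795.6 to 813.6 CPM in CBP-ifKO, which overlapped.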
